A study of Mus musculus and Rattus norvegicus with 6 samples.

Results

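The miRNAs described here are the mature names of the mouse table that carry a number of 1000 or more, are not listed under the same name for rat, and reached at least 10 counts in each of the 3 mouse libraries. The same rule leaves out 3 numbers. Of 1915 mouse names, 1032 were high-numbered and absent from the 764 rat names by exact name, and 124 of these reached the minimum; they are called mouse-only miRNAs below. That term refers to the lists of names only. A miRNA not listed for rat was not shown to be absent from rat retina. They were chosen by their mouse counts, so their mouse levels are a description and carry no test. Small RNA was sequenced from dissected retinas of wild-type mice (strain C57BL/6) and wild-type rats (strain Sprague Dawley), both aged 9 weeks, with 3 libraries per species and no treatment named. Absence from the rat table held for the exact names only: the number of 15 of the 124 also stood in the rat table with another letter or arm suffix, and the numbers of the other 109 were not there in any form.

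A miRNA is cut from a hairpin by the enzymes Drosha and Dicer, and either side of the hairpin, the 5p or the 3p arm, can be kept in a silencing complex. Bases 2 to 8 of the mature miRNA, the seed, pair with target messenger RNAs. Numbers were given in the order of discovery, so high numbers mostly stand for miRNAs found late, by deep sequencing, many of them weakly expressed. A known class among them is the mirtron, whose hairpin is a whole short intron freed by splicing and not by Drosha. A tailed mirtron shares only 1 end of its hairpin with the intron. Others are cut from small nucleolar RNAs, which guide the modification of ribosomal RNA, or from transfer RNAs.

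The most abundant of the mouse-only miRNAs with a RefSeq entry (GRCm38.p6) are shown to make their seeds readable, with the seed in capitals, 5′ to 3′. The list of these sequences follows in falling order of abundance.
miR-1198-5p: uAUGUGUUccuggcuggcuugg
miR-3535: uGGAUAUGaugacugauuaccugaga
miR-1981-5p: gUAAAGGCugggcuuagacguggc
miR-3099-3p: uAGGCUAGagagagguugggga
miR-3968: cGAAUCCCacuccagacacca
miR-1968-5p: uGCAGCUGuuaaggaugguggacu
miR-1964-3p: cCGACUUCugggcuccggcuuu
miR-1298-5p: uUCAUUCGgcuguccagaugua
miR-1249-3p: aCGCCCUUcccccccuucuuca
miR-1191a: cAGUCUUAcuauguagcccua
miR-1224-5p: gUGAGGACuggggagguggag
miR-1947-5p: aGGACGAGcuagcugagugcug
miR-1983: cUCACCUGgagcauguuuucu
No seed in this list was the same as another in it, and of the 13 only miR-1983 shared its seed with a further mouse name of at least 10 counts in each library (miR-412-3p).

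The library totals were 27843590 to 30514632 counts in mouse and 24169628 to 28198305 in rat. At these totals 10 counts in a mouse library were a level of 0.328 to 0.359 CPM (counts per 1000000 counts of the library). The labelled tissue was checked on miRNAs typical of retina: miR-183-5p, miR-96-5p, miR-182-5p, miR-124-3p and miR-9-5p together held 507696 to 533921 CPM in each mouse library. Markers of pigment epithelium and glia summed to 13778 to 16134 CPM and of vessels to 4184 to 5005 CPM. The muscle sum of 642 to 883 CPM was mostly miR-1a-3p (622 to 858 CPM). Its other markers were low, miR-133a-3p at 3.34 to 4.92 and miR-206-3p at 15.9 to 19.3 CPM. Red blood cell markers summed to 104 to 110 CPM, mostly miR-486a-5p (91.8 to 100 CPM). There miR-451a had 9.12 to 11.6 and miR-144-3p 0.674 to 0.721 CPM. Lens and cornea markers summed to 311 to 1249 CPM, lowest in m3 and mostly miR-184-3p. Leukocyte markers summed to 5.78 to 7.08 CPM and epithelium markers to 9.01 to 29.8 CPM, highest in m4. Their part in the levels below was not tested. In retina as a whole, fewer cells that make a miRNA and less of it per cell cannot be told apart.

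The 124 miRNAs held a small and steady share of the mouse counts. It was 0.143% in m1, 0.142% in m3 and 0.150% in m4 (mean 0.145% ± 0.00402, SD, n = 3). Most of this share lay in a few names: the most abundant miRNA held 21.1% ± 0.697, the top 3 held 47.1% ± 1.59 and the top 10 held 75.8% ± 0.756 of the counts on all 124 (SD, n = 3 each). The mean count was at least 1000 for 9 miRNAs, 100 to 1000 for 28, 50 to 100 for 15 and under 50 for 72. Their median level was 1.39 CPM, against 18.0 CPM for the other 501 mouse names of at least 10 counts in each library. The 908 high-numbered mouse-only names under the minimum held 0.00367% to 0.00412% of counts, and 454 of them had 0 counts in all 3 libraries.

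The rule drew its line through a continuous range of counts. Just inside it lay miR-6955-5p (11, 10 and 10 counts in m1, m3 and m4), miR-7036b-5p (10, 14 and 10), miR-6945-3p (12, 10 and 16), miR-6715-5p (20, 15 and 10) and miR-7013-3p (13, 15 and 11). Just outside lay miR-7059-5p (9, 14 and 28), miR-3473a (14, 9 and 10), miR-3077-3p (9, 10 and 9), miR-6948-5p (12, 17 and 8) and miR-6538 (14, 8 and 13). Counts on both sides of the line were alike, and counting error alone is 31.1% of the mean for miR-6955-5p.

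The most abundant member, miR-1198-5p, lies in an intron of Gripap1 on the X chromosome (chrX:7807142-7807163, plus strand). It had 297 CPM in m1, 293 in m3 and 327 in m4 (306 CPM ± 18.7, SD, n = 3). The second, miR-3535, lies on the minus strand at chr1:86352062-86352087, inside the small nucleolar RNA gene Gm24148 in an intron of Ncl, the gene of nucleolin. Its levels were 268, 228 and 241 CPM in m1, m3 and m4, highest in m1. The third was the intron-derived miR-1981-5p at 133, 127 and 134 CPM. These 3 stood clear of the rest in every library, and miR-3099-3p came next.

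In m1, m3 and m4, miR-3099-3p had 95.2, 101 and 112 CPM; it lies in an intron of Usp29, a deubiquitinase gene of the imprinted Peg3 domain (chr7:6803638-6803659, plus strand). The name miR-5099 had 80.2, 84.9 and 86.8 CPM. At 47.4, 62.9 and 72.7 CPM, miR-3968 was the least even of the 10 most abundant, and lowest in m1. It lies antisense to Trim80 and overlapped no annotated small RNA gene. Its last 3 letters are CCA, which are also the letters added to the end of mature transfer RNAs. Other members, such as miR-3060-3p and miR-3102-3p.2-3p, end in the same letters, and a transfer RNA origin was not tested.

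The next 4 varied less between libraries than miR-3968. The intronic miR-1968-5p (in Grtp1) had 52.5, 51.0 and 56.9 CPM. In Zfp84, miR-1964-3p had 48.3, 48.0 and 47.8 CPM, a coefficient of variation (CV, the SD over the mean) of 0.540%. Counting error alone is 2.69% of its mean count, so this CV does not show unusually steady expression. From the serotonin receptor gene Htr2c, miR-1298-5p had 34.2, 38.3 and 33.2 CPM. At 31.7, 34.4 and 34.4 CPM, miR-1249-3p closed the first 10. Among the first 10, neighbours in this order overlapped in their library values for miR-3968 with miR-1968-5p and for miR-1298-5p with miR-1249-3p, and not for the other neighbours.

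After these came miR-1191a, in an exon of BC024978, at 20.2, 19.3 and 18.1 CPM. The mirtron miR-1224-5p had 18.0, 18.2 and 18.9 CPM, and miR-3078-5p had 18.0, 16.7 and 17.8 CPM. In an intron of Lmln, miR-1947-5p had 15.8, 18.6 and 16.4 CPM. The library values of miR-1191a and miR-1224-5p overlapped, as did those of miR-3078-5p and miR-1947-5p, while miR-1224-5p lay just above miR-3078-5p in all libraries.

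**Figure D1:**
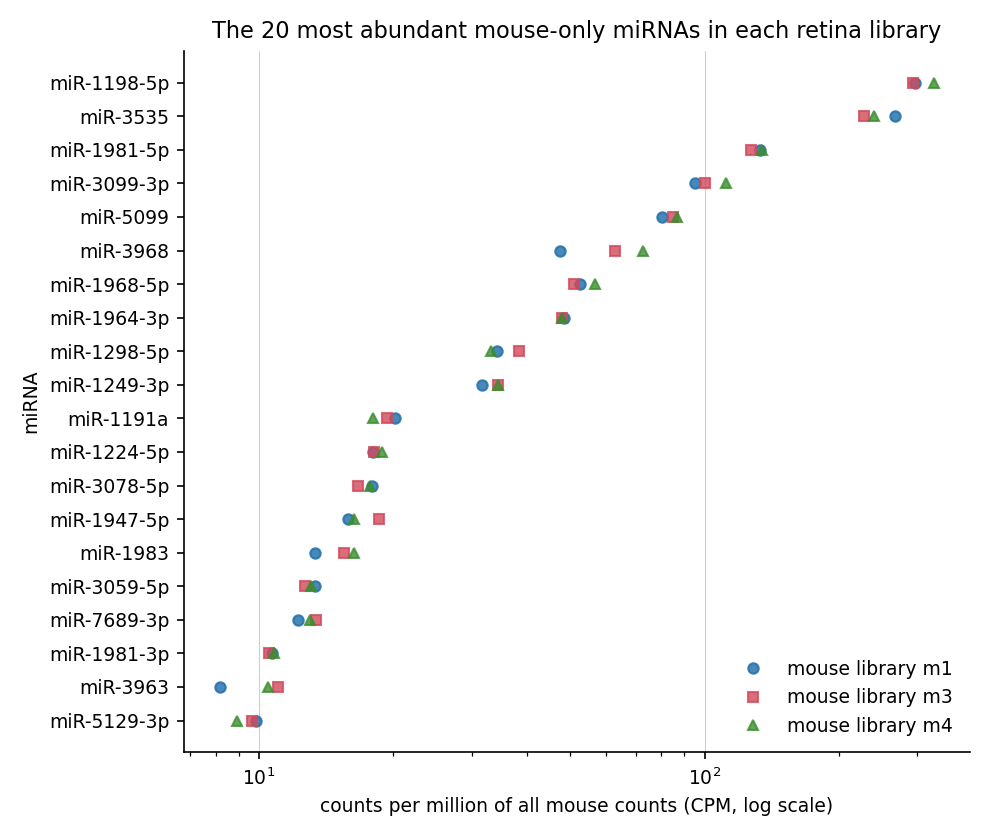
Level of the 20 most abundant mouse-only miRNAs in CPM on a log scale, with 1 symbol per mouse library (m1, m3, m4). The range runs from 306 CPM for miR-1198-5p to 9.48 CPM for miR-5129-3p, and the widest spread among them is that of miR-3968, from 47.4 to 72.7 CPM.

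Libraries of mouse retina gave close values for these miRNAs. Over the 37 with a mean count of at least 100, the highest library stood at a median of 1.17 times the lowest, and the median CV was 8.29%. The widest of these was miR-3081-3p, at 4.31, 7.08 and 6.32 CPM in m1, m3 and m4 (1.64 times). Among all 124 the widest ratios came from low counts. They were those of miR-6994-3p (26, 38 and 14 counts), miR-5100 (35, 16 and 22), miR-3060-3p (21, 14 and 28), miR-3057-3p (21, 11 and 15) and miR-6715-5p (20, 15 and 10). Their ratios lay between 2.02 and 2.51.

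Many of the mouse-only miRNAs were placed at the ends of introns. Sequence and position were found for 110 of the 124 in the RefSeq table of GRCm38.p6, and for 426 of the other 501 names. Of the 110, 40 (36.4%) had an end of the hairpin or of the mature miRNA within 5 bases of a splice site. Names inside a small RNA gene were not counted here. Among the other detected names it was 13 of 426 (3.05%). Among the high-numbered mouse-only names under the minimum it was 366 of 789 (46.4%). A further 35 of the 110 lay elsewhere in an intron, 9 in an exon, 9 antisense to a gene, 11 between genes and 6 inside a gene of another small RNA. These shares describe the annotation of the names, and no test was made.

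**Figure D2:**
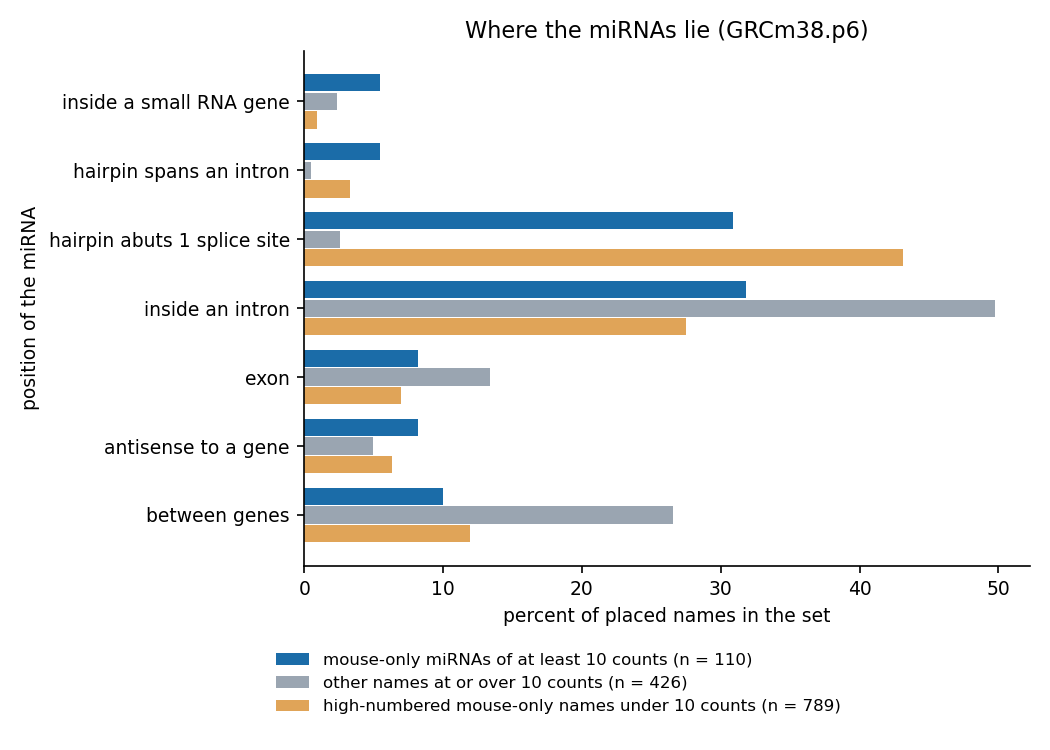
Percent of placed names in each position, for the mouse-only miRNAs (n = 110), the other mouse names of at least 10 counts in each library (n = 426) and the high-numbered mouse-only names under the minimum (n = 789). Names with a hairpin or mature end at 1 splice site make up 30.9%, 2.58% and 43.1% of the sets in this order. Positions inside an intron away from its ends make up 31.8%, 49.8% and 27.5%.

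In 6 miRNAs of 5 hairpins, the hairpin spans a whole intron of 73 to 85 bases. They are miR-1981-5p and miR-1981-3p (Marc2, 82 bases), miR-1224-5p (Vwa5b2, 85 bases), miR-1982-3p (Oaz1, 74 bases), miR-7068-3p (Cherp, 74 bases) and miR-6958-3p (Dennd6b, 73 bases). They held 11.4% ± 0.216 (SD, n = 3) of the counts on the 124. The hairpins of the most abundant pair show the layout, with the annotated arms in capitals. Each begins with GU and ends with AG, the ends of the intron.
miR-1981: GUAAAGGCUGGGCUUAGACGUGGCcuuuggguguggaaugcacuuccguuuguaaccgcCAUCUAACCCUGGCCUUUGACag
miR-1224: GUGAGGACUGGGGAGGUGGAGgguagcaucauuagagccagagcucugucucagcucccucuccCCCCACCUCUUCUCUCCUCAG
The first lies at chr1:184822407-184822488 (minus strand) and the second at chr16:20604452-20604536 (plus strand). In both, the 5p arm starts on the first base of the intron and the 5p arm was the more abundant. In m1, m3 and m4, miR-1224-5p had 501, 554 and 532 counts and miR-1224-3p had 1, 2 and 1. For miR-1981 the 5p arm had 3716, 3887 and 3786 counts and the 3p arm 297, 321 and 304. The other 3 were weaker, at 2.22 CPM ± 0.227 for miR-1982-3p and under 2 CPM for miR-7068-3p and miR-6958-3p, and here the 3p arm was the one over the minimum.

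Another 34 miRNAs met 1 splice site with an end of the hairpin or of the mature miRNA. In all 34 it was the acceptor, the 3′ end of the intron. The hairpin of miR-5121, counted below with the small RNA genes, met a donor, the 5′ end. The 34 held 3.93% ± 0.185 (SD, n = 3) of the counts on the 124. Their median was 0.926 CPM and their highest mean 9.48 CPM (miR-5129-3p, in Zeb2). Of all 40 at splice sites, 31 were 3p arms, 8 were 5p arms and 1 had no arm suffix. Names of the same kind under the minimum split into 178 3p arms and 185 5p arms at splice sites, a difference that was not tested. In 21 miRNAs the last base of the mature sequence was the last base of the intron, and all 21 end in AG. That was 19.1% of the 110, against 1 of the other 426 detected names (0.235%) and 136 of the 789 under the minimum (17.2%). The most abundant of the 21 are shown with their last 3 letters in capitals.
miR-7043-3p: acugugccucucuguuuuCAG
miR-3082-3p: cacauggcacucaacucugCAG
miR-6899-3p: uuguccuucugugucuucugCAG
miR-1982-3p: ucucacccuauguucucccaCAG
miR-6911-3p: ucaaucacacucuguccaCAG
miR-3076-3p: cgcacucuggucuucccuugCAG
miR-7226-3p: ugacacagccauucucugagCAG
The letters CAG closed 20 of the 110 mature sequences (18.2%), 5 of the other 426 (1.17%) and 130 of the 789 under the minimum (16.5%).

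Values of some of these, with their host genes, follow. In Rassf4, miR-7043-3p had 124, 163 and 139 counts in m1, m3 and m4. In Stub1, a ubiquitin ligase gene, miR-3082-3p had 133, 163 and 119. In Klf7, a transcription factor gene, miR-6899-3p had 62, 71 and 62. From Pink1, a mitochondrial kinase gene, miR-7019-3p had 29, 44 and 42. The 5p arms of these hairpins were low: miR-7043-5p had 0 counts in all 3 libraries, miR-6899-5p had 2, 0 and 0, miR-3082-5p had 7, 1 and 4, and miR-7019-5p had 0, 2 and 1.

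**Figure D3:**
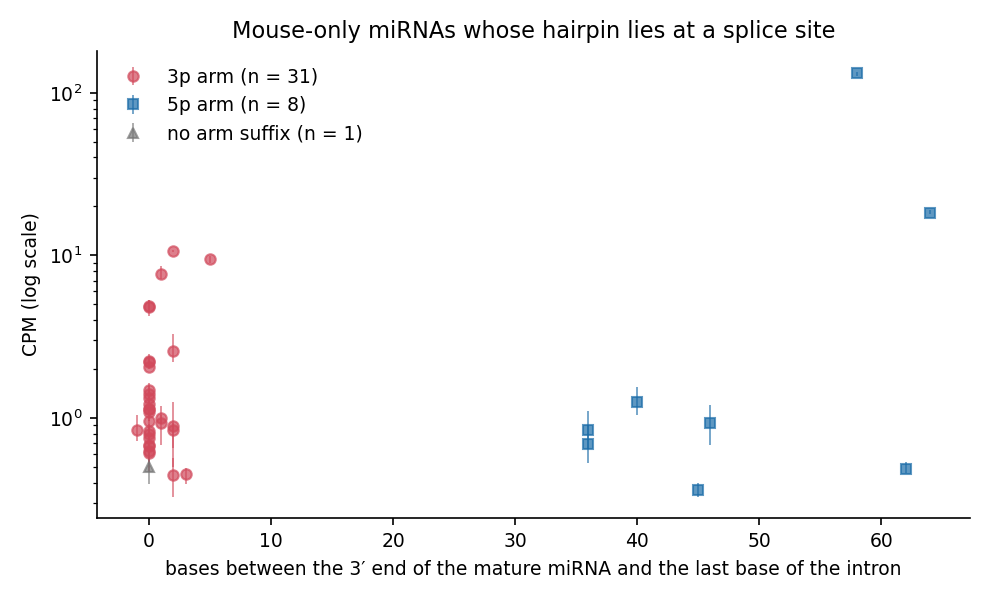
Distance in bases from the 3′ end of the mature miRNA to the last base of the intron, against level in CPM (log scale), for the 40 mouse-only miRNAs at splice sites; points are means of 3 mouse libraries and bars run from the lowest to the highest library. The 3p arms (n = 31) sit within 5 bases of the end of the intron, and the 5p arms (n = 8) lie 36 to 64 bases before it, with miR-1981-5p at 132 CPM the highest.

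Small RNA genes of other kinds overlapped 6 of the miRNAs, which held 18.3% ± 1.43 (SD, n = 3) of the counts on the 124, mostly through miR-3535. The name miR-1983 overlaps the transfer RNA gene n-TItat14 at chr13:21896930-21896950, and had 13.4, 15.5 and 16.4 CPM in m1, m3 and m4. In a scaRNA gene (Gm26083), miR-6516-5p had 70, 56 and 74 counts. The snoRNA genes Snora34 and Snord33 hold miR-1291 (28, 39 and 28 counts) and miR-5121 (15, 31 and 23). At 1 of its 2 places, miR-3084-5p (21, 21 and 34 counts) lies in the snoRNA gene Gm23658. Among the other 426 detected names, 10 (2.35%) overlapped such a gene. Reads of the parent RNA that were counted as miRNA cannot be told apart from processed miRNA in these tables.

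Letters shared with other RNAs mark a few more. The 20 bases of miR-3962 hold a run of 17 that is also in let-7g-5p, a far more abundant miRNA; the run is in capitals.
miR-3962: AGGUAGUAGUUUGUACAuuu
let-7g-5p: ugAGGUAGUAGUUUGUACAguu
The level of let-7g-5p was 44032 CPM and that of miR-3962 was 5.72 CPM, a ratio of 7696. The 17 bases of miR-1961 (15, 15 and 17 counts) carry the let-7 seed and are shown with it in capitals.
miR-1961: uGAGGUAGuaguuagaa
The letters of miR-3470b occur in transcripts of 546 genes other than miRNA genes, and those of miR-3473b in transcripts of 343 genes. None of the other 426 detected names with a sequence occurred in transcripts of more than 5 genes. Whether reads of let-7 or of repeats entered these counts was not tested. The levels of miR-3470b were 5.06, 4.85 and 4.54 CPM, and those of miR-3473b 1.15, 1.51 and 1.17 CPM.

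Few of the mouse-only miRNAs belong to a seed family with other detected miRNAs. A seed shared with another mouse name of at least 10 counts in each library was found for 7 of 110 (6.36%), against 133 of the other 426 (31.2%). They are miR-1983 (miR-412-3p), miR-5129-3p (miR-455-5p), miR-3085-3p (miR-3064-5p), miR-6240 (miR-330-3p), miR-1961 (let-7) and the pair miR-3473b and miR-3473e. The median GC content of the mature sequences was 53.5%, against 47.6% for the other detected names, and the median length was 22 bases in both. The first base was U in 49.1% and 38.7%.

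The introns of Htr2c hold 3 of the miRNAs, miR-1298-5p, miR-1298-3p and miR-1264-3p. The last had 42, 52 and 40 counts in m1, m3 and m4. In Rmst, a long noncoding RNA of neural progenitors, miR-1251-5p had 34, 31 and 34 counts. An exon of Glul, the glutamine synthetase gene that marks Müller glia in retina, holds miR-8114, which had 33, 45 and 52 counts, lowest in m1. An exon of Ppp2ca, the gene of a phosphatase catalytic subunit, holds both arms of miR-3061.

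Arm usage was one-sided in most hairpins. Both arms were listed for 78 hairpins of mouse-only miRNAs, and 69 of these differed over 8-fold between the arms in the summed mouse counts, with arms at 0 set to a floor of 3 counts over the 3 libraries. More 5p was counted in 34 and more 3p in 44, and in 21 the weaker arm was at 0 in all 3 libraries. Since an arm had to reach 10 counts to be chosen, this imbalance is a description. Both arms reached the minimum in 8 hairpins. In m1, m3 and m4, miR-1198-5p had 8265, 8956 and 9230 counts and miR-1198-3p had 12, 16 and 20, a log2 ratio of 9.09 ± 0.28 (SD, n = 3). The log2 ratio of 5p to 3p was 6.69 ± 0.41 for miR-1968, 3.96 ± 0.32 for miR-3078, 3.86 ± 0.40 for miR-3057, 3.63 ± 0.03 for miR-1981 and 2.89 ± 0.11 for miR-1298 (SD, n = 3 each). For miR-1948 it was 1.33 ± 0.64. Only miR-3061 kept both arms about equally, with 61, 59 and 60 counts on 5p and 45, 62 and 54 on 3p (0.17 ± 0.25), where the libraries disagreed on the larger arm. Strong use of the 3p arm was seen for miR-3099 (1, 1 and 2 counts on 5p, 2651, 3067 and 3156 on 3p) and miR-1964 (1, 0 and 1 on 5p, 1345, 1464 and 1347 on 3p).

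**Figure D4:**
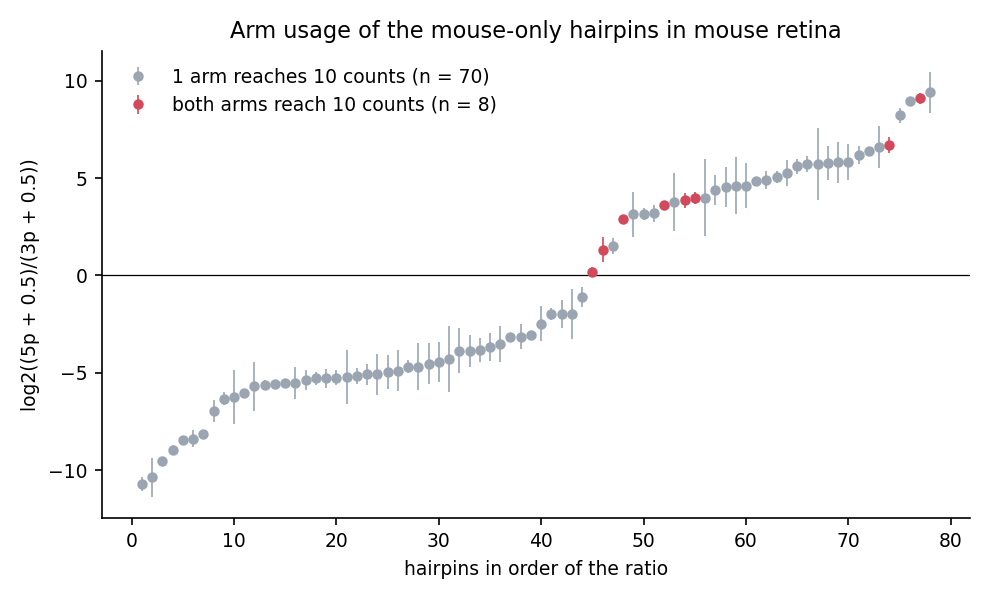
Log2 ratio of 5p to 3p counts, each with 0.5 added, in the 78 hairpins with both arms listed, in rising order; points are means and bars SDs of 3 mouse libraries. The ratios fall on both sides of 0 with few near it: 34 hairpins have more 5p and 44 more 3p, and miR-3061 lies nearest to 0 at 0.17.

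For 6 of the 15 miRNAs whose number also stands in the rat table, the name could be joined to 1 rat name, and the species were compared in a test over all 446 joined names (edgeR quasi-likelihood, Benjamini-Hochberg adjusted p). At an adjusted p under 0.05 the rat libraries had more of 3 of the 6 and less of 1, where 51.1% of all tested names were called (24.4% higher, 26.7% lower). The median log2 difference of rat against mouse was 0.32 over the 6 and 0.03 over all tested. With only 6 names, 4 calls against that background are no result about the group. After TMM scaling the libraries of the species did not overlap in any of the 6. The share of all 446 tested names without overlap was not counted, so this is no result about the 6. In CPM of all counts the libraries did overlap for miR-1249-3p and miR-3084-5p, which were not called. The mouse counts that chose these miRNAs also enter the test, so its p-values are not independent of that choice. Levels of these 6 in both species are CPM of the joined names after TMM scaling, here and in the following 2 paragraphs. Sequences behind the rat names were not compared. Rat library r1 stood apart: without it, 330 of 466 names were called. Species, strain and any difference in library preparation cannot be told apart.

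The intron-spanning miR-1224-5p rose in rat. It had 20.3, 19.6 and 20.5 CPM in m1, m3 and m4 and 59.6, 50.5 and 45.7 CPM in r1, r2 and r4 (listed as miR-1224). In CPM of all counts, before the scaling, rat miR-1224 had 46.8, 65.9 and 57.6 CPM. There r1 was the lowest rat library and not the highest. All rat libraries lay above all mouse libraries, by 1.37 ± 0.15 on the log2 scale (SE, edgeR adjusted p = 0.000239). The rise of miR-3085-3p was of like size (1.38 ± 0.34, adjusted p = 0.0108), from 2.56, 2.19 and 2.12 CPM to 3.16, 7.05 and 7.49 CPM. Rat library r1 was the lowest of the 3, and without it the log2 difference was 1.67. The small rise of miR-3099-3p, from 108, 108 and 122 CPM to 151, 161 and 159 CPM (0.48 ± 0.11, adjusted p = 0.00880), was not called without m1 (adjusted p = 0.0594) or without m3 (adjusted p = 0.0513). In CPM of all counts, before this scaling, rat miR-3099 had 119, 209.8 and 201 CPM in r1, r2 and r4, so r1 stood much lower there.

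Among the 6, the one call of a lower level in rat was that of miR-3102-3p. It lies in Arhgef17, 1 base before the end of an intron of 104 bases, and had 9.79, 7.94 and 7.75 TMM-scaled CPM in m1, m3 and m4 and 1.05, 1.998 and 1.30 CPM in r1, r2 and r4. The groups did not overlap, and the log2 difference was -2.53 ± 0.27 (adjusted p = 0.000237). A choice by mouse counts favours this direction. A further mouse name of this number, miR-3102-3p.2-3p, had 1.15, 1.11 and 1.28 CPM of all counts in mouse, where rat miR-3102 had 0.827, 2.61 and 1.63. Mean mouse counts were 222 for miR-3102-3p and 34 for miR-3102-3p.2-3p, which the joining step did not consider. Had it been weighed like a partner arm, the limit of 10 times would not have been met. Which of them rat miR-3102 stands for is not known here, so this call may compare different miRNAs. For miR-1249-3p the levels were 35.8, 37.0 and 37.4 TMM-scaled CPM in mouse libraries and 40.2, 43.4 and 39.7 CPM in rat libraries, a difference of 0.16 ± 0.12 on the log2 scale (edgeR adjusted p = 0.295). Joined to rat miR-3084a-5p, miR-3084-5p differed by -0.75 ± 0.30 (edgeR adjusted p = 0.0676). Rat also lists copies b to d, and miR-3084b-5p and miR-3084c-5p have the same counts (8, 10 and 12), so how reads were divided among the copies is uncertain.

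**Figure D5:**
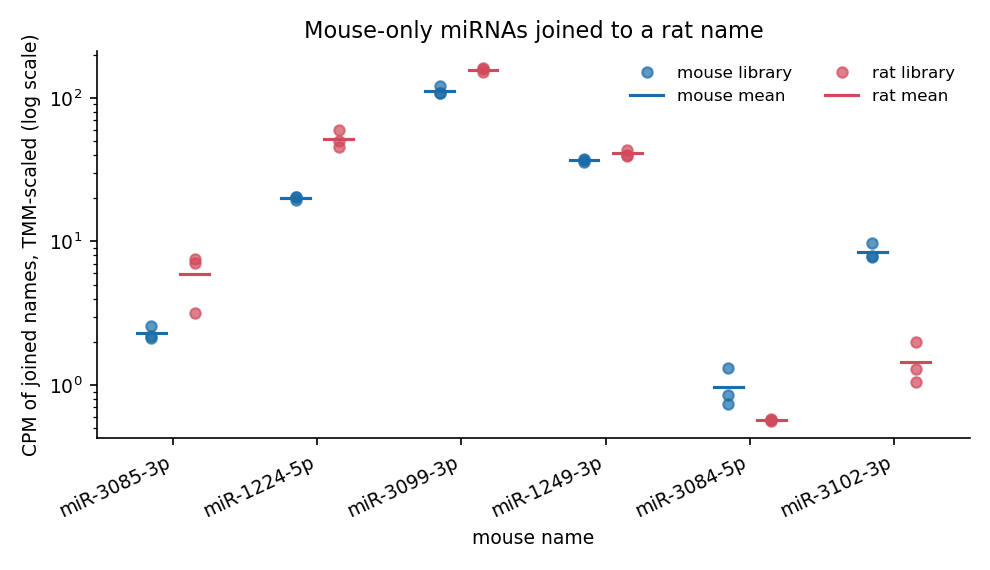
Level of the 6 mouse-only miRNAs joined to a rat name, in TMM-scaled CPM of joined names on a log scale; points are libraries and bars are means of 3 mouse and 3 rat libraries. The rat libraries lie above the mouse libraries for miR-1224-5p, miR-3085-3p, miR-3099-3p and miR-1249-3p and below them for miR-3102-3p and miR-3084-5p; the test called neither miR-1249-3p nor miR-3084-5p.

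For the other numbers found in both tables no single arm or letter could be joined, and values of all counts are given side by side. The rat name miR-1298 had 206, 163 and 183 CPM in r1, r2 and r4, above both mouse arms, at 33.2 to 38.3 CPM for miR-1298-5p and 4.63 to 4.75 CPM for miR-1298-3p. If a 5p arm of at least 5 times its partner is accepted, a choice made after the data were seen, the log2 difference of miR-1298-5p was 2.20 ± 0.28 (SE, edgeR adjusted p = 0.000609). The rat name miR-3074 had 0.0827, 0.633 and 0.709 CPM, below the 6.43 to 7.50 CPM of mouse miR-3074-5p and nearer to the 0.816 to 1.26 CPM of mouse miR-3074-1-3p. Which arm the rat name stands for is not known here. With the same wider choice, which joins it to miR-3074-5p, the log2 difference was -4.15 ± 0.39 (adjusted p = 0.000110). Rat miR-3473 had 6.496, 7.08 and 6.88 CPM, while mouse lists this number with letters, at 1.15 to 1.51 CPM for miR-3473b, 1.11 to 1.35 CPM for miR-3473e and 0.557 to 0.674 CPM for miR-3473f. Rat miR-3572 had 0.248, 0.949 and 0.780 CPM, against 0.970, 0.950 and 0.958 CPM for mouse miR-3572-3p. With the wider choice the log2 difference was -0.86 ± 0.31 (edgeR adjusted p = 0.0489).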

How the data were processed

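For each species the authors deposited 1 table of raw, whole-number counts by mature name. The aligner, the mismatches it allowed, the annotation release and the handling of reads that match more than 1 name: not given in the sources used here. Columns (m1, m3, m4, r1, r2, r4) could be assigned to a species and not to a numbered sample. The labels' protocol, which names rat eyes for both species, speaks of triplicate biological samples without saying that each was a separate animal, so p-values cover only library-to-library spread, which could be technical. Levels are CPM of all counts of a library unless stated. Names were joined between species by exact name (542), letter (43), or a name without an arm suffix to the arm with at least 10 times its partner (28), giving 613. The test used edgeR 4.0.16 in R 4.3.3 (filterByExpr, TMM, quasi-likelihood F test, species only), and DESeq2 1.42.0 was an alternative. The edgeR test was also run on simulated counts with the same spread in all libraries. No library stood apart there as r1 did, so that run says nothing about such a case. Sequences and positions came from RefSeq (GRCm38.p6) by name, and host genes from GENCODE M21 on the same assembly. The rat sequences were not used here. No genome sequence was used, so perfect matches were counted in GENCODE transcripts and not in the genome; overlaps with RefSeq small RNA genes ignored strand. Errors computed from counts alone cover counting error only, while the SDs and SEs take in library-to-library spread as well.

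Members and lists were chosen with earlier results of these data known. Named were the 15 most abundant members, those tested in rat, 5 on each side of the count minimum, the 5 widest between libraries, pairs with both arms counted, and up to 4 per origin list. Other miRNAs named were chosen after their values were seen. The result for 1 host gene is not reported here.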

Additional observations from a re-analysis of the deposited data

How the results depend on the processing

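The number of mouse-only miRNAs depended on the minimum: it was 328 with a minimum of 1 count in each mouse library, 50 with 50 counts and 73 with 1 CPM, and 109 when a number found in the rat table in any form counted as shared. Their share of counts was 0.115% without miR-1198-5p and 0.200% relative to names found in both tables. The median size of the log2 arm ratio was 5.07, 4.32 with 1 count added to each arm, and 4.60 on summed counts with arms at 0 set to the floor. Names with a hairpin or mature end at a splice site numbered 33, 39 and 41 of 110 within 0, 2 and 10 bases. Among the other 426 names they numbered 3, 11 and 15. Joined by letter or a single arm candidate only, miR-3084-5p alone of the 6 could be tested: 0 members were higher and 0 lower, and the median was -0.73, since the other 5 were not in that fit. With an arm ratio of 5, chosen after the data were seen, 3 members were lower and 4 higher. Library totals alone moved the median of all tested names from 0.03 to 0.33 (log2) and called 124 of 177 names higher, against 109 of 228; the 4 called members and their directions were the same there, without a filter on low counts and with DESeq2. Leaving out 1 library ended only the call of miR-3099-3p among the 6 (without m1 or m3). No paired analysis was possible because the columns carry no replicate number of the labels.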
